A study of Homo sapiens with 6 samples.

Results

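The lysyl oxidase family was taken as the 5 genes LOX, LOXL1, LOXL2, LOXL3 and LOXL4, matched by gene symbol to the Ensembl identifiers of the deposited count table. All 5 were found among its 61859 genes, and all 5 passed the filter on low counts that left 16411 genes for testing. The libraries came from IOMM-Lee, an established line of grade 3, malignant meningioma cells. Meningiomas grow from the coverings of the brain. Of the 6 RNA-seq libraries 3 came from normoxic cells and 3 from cells kept at 0.2% oxygen in a hypoxia workstation, with 48 h given for both groups. Both groups were the same line, with no engineered change named, kept at 37 °C and 5% CO2 with 10% serum, and the oxygen level of the normoxic cultures is not given in the sources used here. A cell line grown alone has no stromal or vascular partner cells, so the family's level here is that of 1 tumour line.

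Lysyl oxidases are secreted copper-dependent amine oxidases that use molecular oxygen. They turn lysine and hydroxylysine side chains of collagen and elastin into reactive aldehydes, which then join into the covalent crosslinks that stiffen the extracellular matrix. LOX is made as an inactive precursor that procollagen C-proteinases such as BMP1 cleave, LOXL1 is tied to elastic fibres, and LOXL2, LOXL3 and LOXL4 share scavenger receptor cysteine-rich domains. LOX is a textbook target of the hypoxia-inducible factors, transcription factors that bind DNA at a short core motif.

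The bases upstream of the RefSeq starts of LOX and LOXL1 are shown because LOX had the family's highest fold change and LOXL1 did not pass the test. The RefSeq promoter table (GRCh38.p14) held windows for 4 of the 5 genes, LOX, LOXL1, LOXL3 and LOXL4. It held none for LOXL2, the other gene that rose. The letters searched on both strands were ACGTG and GCGTG, the core of the motif that hypoxia-inducible factors are known to bind, and matches are in capitals, with CACGT marking ACGTG on the other strand. The LOX window is chr5:122078260-122078509 on the minus strand and the LOXL1 window is chr15:73926212-73926461 on the plus strand, each the 250 bases before the first start listed in that table. That start lies inside the gene span of GENCODE 29 given further on, so the LOXL1 window falls wholly within that span and the LOX window in part.
LOX: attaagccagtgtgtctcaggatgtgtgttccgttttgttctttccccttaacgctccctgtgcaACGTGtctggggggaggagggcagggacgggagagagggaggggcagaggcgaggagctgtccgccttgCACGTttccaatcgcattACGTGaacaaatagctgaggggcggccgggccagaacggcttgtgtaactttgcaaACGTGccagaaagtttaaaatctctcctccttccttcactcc
LOXL1: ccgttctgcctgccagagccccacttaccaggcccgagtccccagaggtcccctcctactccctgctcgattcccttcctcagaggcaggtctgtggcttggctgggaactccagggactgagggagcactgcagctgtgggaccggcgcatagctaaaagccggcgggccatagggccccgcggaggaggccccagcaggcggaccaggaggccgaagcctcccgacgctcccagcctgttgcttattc
The first LOX window, shown here, held 4 matches to ACGTG and 0 to GCGTG, and the other 2 windows listed for LOX, which overlap each other, each held 1 ACGTG and 1 GCGTG. Counted back from the start in the first window, 3 matches read along the gene's strand at -185 to -181, -98 to -94 and -42 to -38, and 1 on the other strand at -116 to -112. At least 4 ACGTG matches were in the first listed window of 0.711% of the 27305 genes with a window, and at least 1 was in 18.6%. A palindrome CACGTG counts as 2 matches, 1 on each strand. Neither motif was found in the LOXL1 window, in the LOXL4 window or in the first LOXL3 window, while the second LOXL3 window held 1 GCGTG. At least 1 match to either motif was in 43.1% of first windows. A match is a description of the letters and no measure of binding.

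The 3 normoxic libraries held 14685317 to 19554178 counts and the 3 hypoxic ones 10619864 to 18447885, so that 3 counts correspond to 0.133 to 0.315 CPM, counts scaled to a common library size. The first principal component, with 80.9% of the variance, separated the groups. On the second, with 7.83%, hypoxia replicate 3 lay at 47.7 and the other hypoxic libraries at -27.2 and -20.1. Without hypoxia replicate 3 the log2 change was 4.21 for LOX and 0.98 for LOXL2, against 4.32 and 0.95 with it. The 10 gene lists described further on then held 43 genes that rose and 16 that fell, against 45 and 12. Over all tested genes the same fit gave 5283 higher and 5630 lower, against 5117 and 5091, so falls were more frequent there too. Mitochondrially encoded genes took 6.42% to 7.29% of the counts in normoxia and 2.05% to 3.05% in hypoxia. Among all tested genes 5117 were higher and 5091 lower in hypoxia. CPM values use totals scaled by the trimmed mean of M-values (TMM). Scaling by library totals alone moved the median log2 change of all genes from 0.01 by -0.31, and the share of called genes that were higher from 50.1% to 33.1%.

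Of the 5 genes 2 rose in hypoxia, LOX and LOXL2, and 0 fell, at an adjusted p under 0.05 in edgeR's quasi-likelihood test over all tested genes. By the same rule 31.2% of all tested genes were higher, 31.0% lower and 62.2% either, so a count of 2 in 5 is close to the background. LOXL1, LOXL3 and LOXL4 did not pass the test. The libraries of the 2 groups did not overlap in CPM for LOX, LOXL2 and LOXL3, 3 of 5 genes, against 67.9% of all tested genes. In a bulk measurement, more RNA per cell and more cells carrying it cannot be told apart.

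LOX (ENSG00000113083, GRCh38 chr5:122063195-122078360, minus strand) encodes the founding enzyme of the family. It had 2655, 2139 and 2248 counts in normoxia, which correspond to 117, 131 and 131 CPM. In hypoxia it had 22649, 23561 and 46634 counts, or 2381, 2394 and 2800 CPM. Every hypoxic library lay far above every normoxic one, and hypoxia replicate 3 was the highest. The mean level rose from 126 ± 7.75 to 2525 ± 238 CPM (SD, n = 3). This was a log2 change of 4.32 (SE 0.13, 95% interval 4.04 to 4.60), or 19.99-fold, with an adjusted p of 2.16e-09 in edgeR's quasi-likelihood test. A total of 76 of the 16411 tested genes, 0.463%, had a higher log2 change. Ordered by mean CPM among all genes of the count table, with no correction for length, LOX stood at place 1374 in normoxia. In hypoxia it stood at place 39.

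LOXL2 (ENSG00000134013, GRCh38 chr8:23297189-23425328, minus strand) is a family member known for work on basement membrane collagen. It had 2971, 2255 and 2540 counts in normoxia and 2694, 2723 and 4126 in hypoxia. Scaled to CPM, these were 131, 138 and 148 in normoxia and 283, 277 and 248 in hypoxia. All hypoxic libraries were above all normoxic ones, with hypoxia replicate 3, the highest for LOX, the lowest of its group for LOXL2. The mean rose from 139 ± 8.36 to 269 ± 18.9 CPM (SD, n = 3), 1.94-fold, or 0.95 on the log2 scale (SE 0.09, 95% interval 0.74 to 1.16, edgeR adjusted p = 9.33e-06). A larger rise was seen in 18.4% of all tested genes.

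LOXL1 (ENSG00000129038, GRCh38 chr15:73925989-73952137, plus strand), the member tied to elastin, had 2740, 1667 and 2255 counts in normoxia and 1047, 973 and 1779 in hypoxia. Its CPM values were 121, 102 and 131 in normoxia and 110, 98.8 and 107 in hypoxia. The groups overlapped, since normoxia replicate 2 lay below hypoxia replicates 1 and 3. The means were 118 ± 14.98 and 105 ± 5.78 CPM (SD, n = 3), a log2 difference of -0.17 (SE 0.11, 95% interval -0.41 to 0.08; edgeR adjusted p = 0.208). With library totals alone the difference was -0.48 and passed the edgeR test (adjusted p = 0.00253), beside the shift of -0.31 in the median of all genes.

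LOXL3 (ENSG00000115318, GRCh38 chr2:74532414-74555690, minus strand) had 93, 67 and 65 counts in normoxia and 29, 25 and 55 in hypoxia. In CPM these were 4.11, 4.09 and 3.79, and then 3.05, 2.54 and 3.30. All hypoxic libraries lay below all normoxic ones. The means were 3.996 ± 0.183 and 2.96 ± 0.388 CPM (SD, n = 3), and the log2 difference of -0.42 (SE 0.24, 95% interval -0.95 to 0.11) did not pass the test (edgeR adjusted p = 0.146). With library totals alone it was -0.73 and passed (edgeR adjusted p = 0.0234).

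LOXL4 (ENSG00000138131, GRCh38 chr10:98247690-98268250, minus strand) was the least abundant member. It had 11, 13 and 8 counts in normoxia and 11, 8 and 8 in hypoxia, or 0.486, 0.794 and 0.466 against 1.16, 0.813 and 0.480 CPM. The groups overlapped and single libraries rested on 8 to 13 counts. The means were 0.582 ± 0.184 and 0.817 ± 0.338 CPM (SD, n = 3). The log2 difference was 0.44 with an SE of 0.49 and a 95% interval of -0.65 to 1.52 (edgeR adjusted p = 0.462), so a change of the size seen for LOXL2 would not be told from none at this depth.

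**Figure D1:**
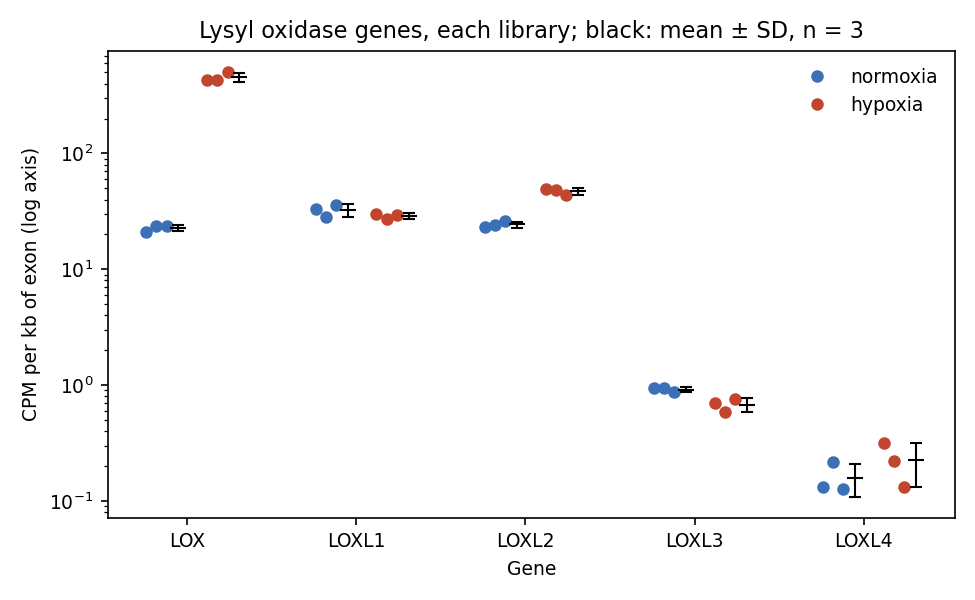
Level of each lysyl oxidase gene in CPM per kilobase of exon (log axis) in the 3 normoxic and 3 hypoxic libraries, with black marks for mean ± SD. LOX stood at 22.8 in normoxia and 455 in hypoxia, LOXL1 at 32.5 and 28.9, and LOXL3 and LOXL4 were below 1.

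**Figure D2:**
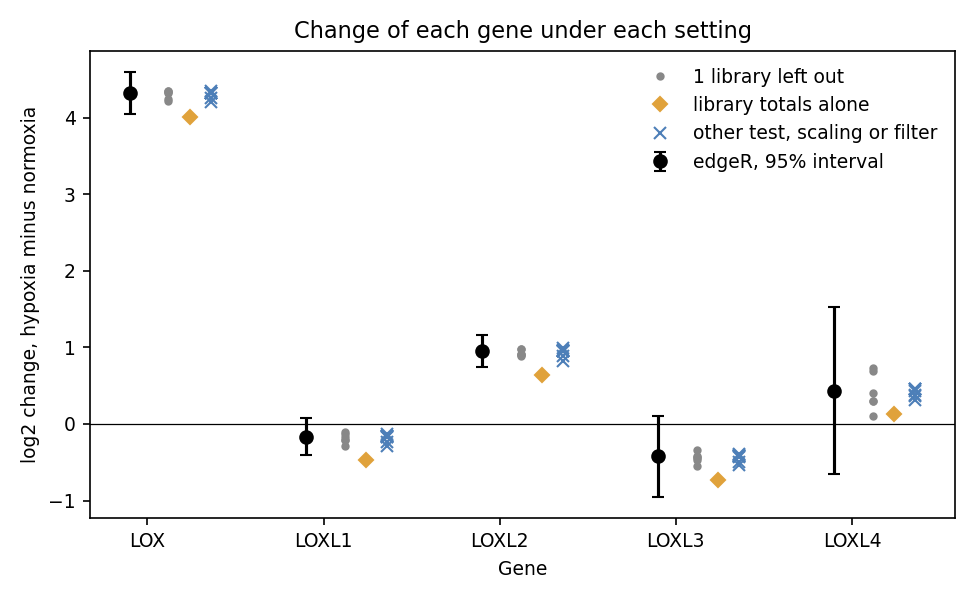
Log2 change of each gene, hypoxia minus normoxia, from edgeR with its 95% interval (black) and under each alternative setting. LOX stayed between 4.01 and 4.35 and LOXL2 at 0.64 or more, while the interval of LOXL1, LOXL3 and LOXL4 included 0.

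Levels were compared between the 5 members only per kilobase of exon, on the CPM scale, and first by merged exon length. In normoxia LOXL1 was highest at 32.5 ± 4.12, with every library above those of the other members, followed by LOXL2 at 24.4 ± 1.47 and LOX at 22.8 ± 1.40 (SD, n = 3). LOXL2 and LOX did not differ beyond their spread, with LOX at 21.2, 23.6 and 23.6 in its libraries. LOXL3 stood at 0.916 ± 0.0419 and LOXL4 at 0.159 ± 0.0503. In hypoxia the order was LOX at 455 ± 42.9, LOXL2 at 47.2 ± 3.31, LOXL1 at 28.9 ± 1.59, LOXL3 at 0.679 ± 0.0890 and LOXL4 at 0.224 ± 0.0926, with every neighbour apart by more than its SD. By this length LOXL1 and LOXL2 stood in opposite order in the groups. Per kilobase of the longest transcript, LOXL1 at 42.4 ± 5.38 and LOXL2 at 39.2 ± 2.36 did not differ beyond their spread in normoxia, and LOX stood at 24.8 ± 1.52 (SD, n = 3).

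The summed level of the 5 genes was 80.7 ± 5.22 CPM per kilobase in normoxia and 532 ± 40.1 in hypoxia, 6.60-fold more (SD, n = 3). Without LOX the sum was 57.9 ± 4.89 and 77.0 ± 3.66, or 1.33-fold. LOX held 26.9%, 30.7% and 27.2% of the family's level in the normoxic libraries and 84.1%, 84.9% and 87.3% in the hypoxic ones. Its mean share was 28.3% ± 2.06 in normoxia and 85.5% ± 1.62 in hypoxia, a difference of 57.2 percentage points. The share of LOXL1 went from 40.2% ± 3.26 to 5.45% ± 0.437, and that of LOXL2 from 30.2% ± 1.09 to 8.92% ± 1.23, although LOXL2 RNA itself rose. LOXL3 held 1.14% and 0.128%, and LOXL4 0.200% and 0.0429%. For all 5 shares the groups did not overlap. The exact two-sided permutation test gave p = 0.1 for each, the smallest that 3 against 3 libraries allow. It stayed at 0.1 after adjustment over the 5 shares. The shares add up to 100% in each library, so a larger share of LOX lowers the summed share of the others. The 5 tests are therefore not independent, and a lower share need not mean less RNA of that gene.

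**Figure D3:**
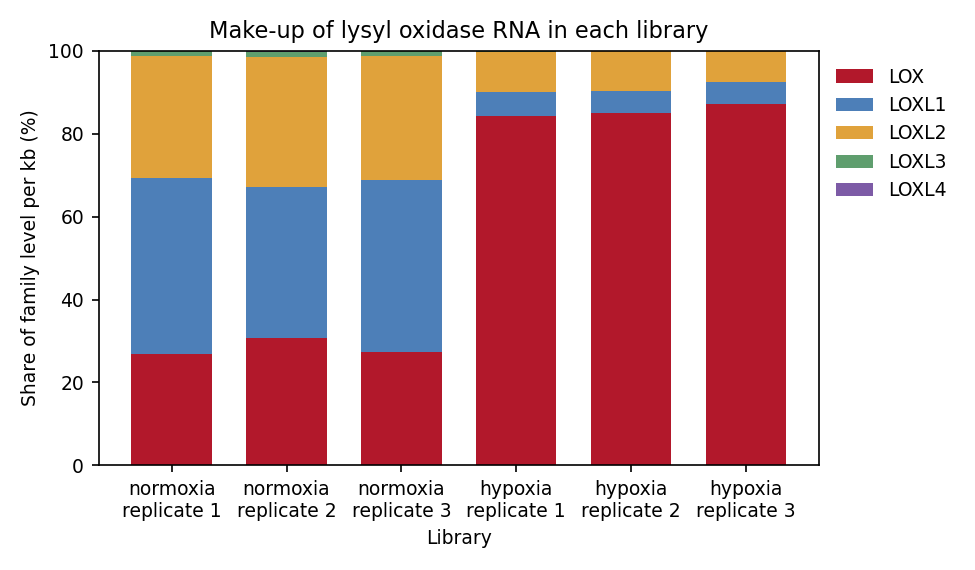
Share of the summed lysyl oxidase level per kilobase (percent) held by each gene in each of the 6 libraries. LOX filled 26.9% to 30.7% of the bar in normoxia and 84.1% to 87.3% in hypoxia.

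Ratios between genes within a library do not depend on the scaling, and 10 pairs were compared. The LOX to LOXL1 ratio per kilobase was 0.704 in normoxia and 15.7 in hypoxia (geometric means, n = 3), a log2 difference of 4.48. LOX to LOXL2 went from 0.935 to 9.64, a log2 difference of 3.37, with every hypoxic ratio above every normoxic one. LOXL1 to LOXL2 went from 1.33 to 0.614 (log2 difference -1.11) and LOXL2 to LOXL3 from 26.6 to 69.7 (1.39). For these 4 pairs and for LOX with LOXL3 (4.76) and LOXL4 (3.88) the groups did not overlap. Each of these 6 pairs had an exact permutation p of 0.1, the smallest possible, and 0.167 after adjustment over the 10 pairs. The LOXL1 to LOXL3 ratio differed by 0.28 with overlapping groups, and the other 3 pairs, all with LOXL4, overlapped too (exact permutation p = 0.2 to 0.4).

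Exons of other genes overlap all 5 members, and whether reads were counted by strand is not given in the sources used here. The antisense gene at LOXL4, over 4.16% of its exons, had too few counts to test. LOXL1-AS1, the antisense transcript at LOXL1, shares 335 exonic bases with it, 9.21% of the LOXL1 exons. It had 37.1, 33.5 and 35.4 CPM in normoxia and 73.8, 63.6 and 73.3 in hypoxia, with no overlap. It rose 1.99-fold (log2 0.99, SE 0.11, edgeR adjusted p = 1.57e-05), where LOXL1 stood at -0.17. LOXL2-AS1, antisense to LOXL2 over 178 bases or 3.12% of its exons, had 1.68, 1.40 and 1.69 CPM in normoxia and 9.36, 10.7 and 14.2 in hypoxia. It rose 7.16-fold (log2 2.84, SE 0.24, edgeR adjusted p = 2.78e-06), where LOXL2 stood at 0.95. ENTPD4, on the same strand as LOXL2 over 120 bases, averaged 69.8 and 71.1 CPM (edgeR adjusted p = 0.833), a log2 difference of 0.03 that was -0.04 with upper-quartile scaling, -0.28 with library totals alone and -0.09 without the filter. SRFBP1 overlaps 2.49% of the LOX exons on the other strand and fell 1.24-fold, from 31.9 ± 2.37 to 25.7 ± 1.96 CPM (edgeR adjusted p = 0.0432), a call lost with DESeq2 (adjusted p = 0.0669), with limma-voom (adjusted p = 0.0522), with the replicate block (adjusted p = 0.0548) and without any of 4 libraries, normoxia replicates 2 and 3 and hypoxia replicates 1 and 2. For LOXL3, 19.3% of the exons are shared with HTRA2 and DOK1 on the other strand, whose log2 differences of 0.32 and -0.30 did not pass the edgeR test (adjusted p = 0.137 and 0.181). HTRA2 passed without hypoxia replicate 2 (edgeR adjusted p = 0.0224) and DOK1 with library totals alone (edgeR adjusted p = 0.019). How far such shared bases moved the counts of the 5 genes was not tested.

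The genes most like each member were taken as those with the smallest distance between centred log2 CPM profiles over the 6 libraries, among 12372 tested protein-coding genes. For LOX these were HK2, a hexokinase (distance 0.167), ENO2, an enolase (0.321), and RORA, a nuclear receptor (0.322). HK2 had a log2 change of 4.40, its mean going from 64.3 ± 3.76 to 1359 ± 51.2 CPM. ENO2 went from 50.2 ± 5.74 to 1067 ± 24.6 CPM, and RORA from 16.7 ± 1.86 to 356 ± 67.0. For LOXL2 they were HGS (0.0818), UIMC1 (0.0952) and CARHSP1 (0.0983), with log2 changes of 0.95 to 0.98. For LOXL1 the nearest were TMEM243 (0.0982), COPS6 (0.128) and NABP2 (0.162), and for LOXL3 ARIH2 (0.106), TRIM24 (0.107) and DCAF12 (0.119). No profile was matched to LOXL4 in the text, since its libraries hold 8 to 13 counts. These distances rest on 2 groups of 3 libraries and describe likeness only.

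Genes that cut or present the enzymes moved in both directions. The filter keeps a gene that is high in 1 group alone, and such a gene had to differ, so counts over tested genes are descriptions. Beside the counts of this and the later lists stand 31.2% higher and 31.0% lower among all tested genes. Of 8 procollagen and LOX precursor proteases and enhancers, 6 were tested, 2 rose and 3 fell. For 2 of those that fell, TLL2 and ADAMTS3, no hypoxic library reached the filter's level. The median log2 change was -0.80 over all 6 tested genes of the list and 0.26 over the other 4. It was 0.01 over all tested genes of the count table, with none left out. BMP1, the proteinase that cleaves the LOX precursor, rose from 28.3 ± 3.98 to 51.7 ± 12.6 CPM, 1.83-fold (SD, n = 3; edgeR adjusted p = 0.00149), with every hypoxic library above every normoxic one. PCOLCE, an enhancer of procollagen C-proteinase, fell from 85.9 ± 1.21 to 29.5 ± 1.84 CPM, 2.91-fold (edgeR adjusted p = 4.56e-07). The proteinase genes TLL2 and ADAMTS3, named after their values were seen, were kept through normoxia alone, with 22 to 37 and 17 to 34 counts there and 0 to 4 and 1 to 4 in hypoxia. PCOLCE2 rose 1.49-fold (edgeR adjusted p = 0.0154), a call lost with library totals alone, with no filter, and when any one of normoxia replicates 1 and 2 and hypoxia replicates 1 and 2 was left out, which leaves 1 gene that rose. ADAMTS2, a procollagen N-proteinase, stood at 253 ± 3.74 and 245 ± 12.6 CPM (edgeR adjusted p = 0.631).

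Of 8 matrix proteins known to bind lysyl oxidases, 6 were tested, 4 rose and 1 fell. The gene that fell, POSTN, was kept by the filter through normoxia alone. The median log2 change was 1.15 over all 6 and 1.23 over the other 5. EFEMP2 (fibulin-4), which docks LOX on elastic fibres, rose from 26.9 ± 0.880 to 67.2 ± 0.461 CPM, 2.50-fold (SD, n = 3; edgeR adjusted p = 1.16e-06). FN1 (fibronectin) rose 2.08-fold, from 46.8 ± 1.02 to 97.4 ± 17.7 CPM, and TNXB 2.35-fold. POSTN (periostin), which supports LOX activation by BMP1, fell 37.1-fold, from 15.8 ± 1.47 to 0.430 ± 0.0743 CPM (edgeR adjusted p = 6.55e-08). THBS1 (thrombospondin 1) had 67.5, 71.3 and 67.5 CPM in normoxia and 37.7, 38.1 and 150 in hypoxia, where hypoxia replicate 3 stood apart (edgeR adjusted p = 0.851); without that library 2 genes of this list fell.

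Copper enters cells through SLC31A1 and reaches secreted enzymes through ATOX1 and ATP7A. All 11 genes of a wider metal-handling list were tested, 5 rose and 0 fell (median log2 change 0.61). The metal-binding MT1X and MT2A are among the 5. MT1X, a metallothionein, rose 12.2-fold, from 4.77 ± 1.53 to 57.8 ± 16.0 CPM (SD, n = 3; edgeR adjusted p = 7.06e-06). ATP7B rose 1.81-fold and MT2A 1.72-fold. SLC31A1 and ATP7A, named here after their values were seen, rose 1.56-fold (edgeR adjusted p = 0.00107) and 1.66-fold (edgeR adjusted p = 0.0117). The call of ATP7A was lost with library totals alone and without normoxia replicate 1 (edgeR adjusted p = 0.102 and 0.0545). ATOX1 averaged 42.7 CPM in normoxia and 47.8 in hypoxia with overlapping groups (edgeR adjusted p = 0.627).

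Among substrates of the enzymes, most fibrillar collagen genes and elastin were low in this line. Of 11 fibrillar collagen genes 7 had too few counts to test, among them COL1A2 and COL3A1 with 2 counts or fewer in any library. All 4 tested ones rose, and 1 of them, COL11A2, was kept by the filter through hypoxia alone. COL5A1 rose from 6.41 ± 0.572 to 149 ± 8.69 CPM, 23.1-fold (SD, n = 3; edgeR adjusted p = 1.45e-09), COL27A1 3.60-fold, and COL1A1 from 0.864 ± 0.635 to 2.99 ± 0.0961 CPM. Of 6 basement membrane collagen genes 4 were tested, 0 rose and 1 fell. COL4A1 stood at 49.7 ± 3.10 and 49.0 ± 1.59 CPM and COL4A2 at 88.0 ± 2.98 and 86.6 ± 3.94, with log2 differences of -0.02 each, and COL4A5 fell 1.54-fold (edgeR adjusted p = 0.011). With library totals alone 3 of the 4 fell. Elastin itself (ELN) was not tested, with 0 to 6 counts a library. Of 13 elastic fibre genes 8 were tested, 4 rose and 0 fell (median log2 change 0.30). Beside EFEMP2, FBLN1 rose 3.17-fold and MFAP2, a microfibril protein, 2.21-fold, from 5.03 ± 0.893 to 11.1 ± 0.971 CPM. Without hypoxia replicate 3, 2 elastic fibre genes fell.

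Lysines that LOX enzymes oxidise can first be hydroxylated by the PLOD enzymes. Of 10 genes for lysyl hydroxylases and their partners in collagen modification all were tested, 8 rose and 1 fell (median log2 change 0.47). PLOD2 rose 12.1-fold, from 143 ± 11.3 to 1731 ± 528 CPM (SD, n = 3; edgeR adjusted p = 5.51e-07), and PLOD1 5.05-fold (edgeR adjusted p = 3.6e-08). FKBP10, a chaperone partner, rose 1.91-fold. COLGALT2, a collagen galactosyltransferase, fell 4.56-fold, from 12.4 ± 0.865 to 2.71 ± 0.516 CPM. With library totals alone 4 of the 10 rose. Among 9 amine oxidases outside the family, 5 were tested, 2 rose and 2 fell (median log2 change -0.07). SMOX, spermine oxidase, rose 2.03-fold, AOC2 3.25-fold from under 1 CPM, and the histone demethylases KDM1B and KDM1A fell 1.80-fold and 1.23-fold.

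**Figure D4:**
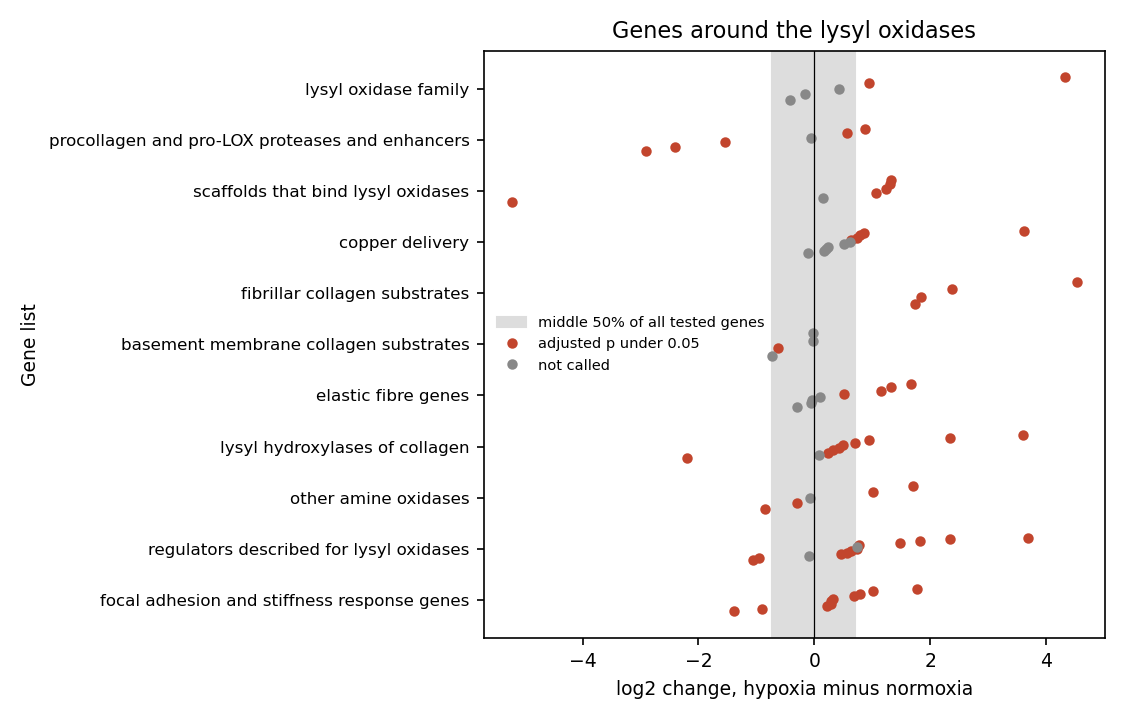
Log2 change, hypoxia minus normoxia, of each tested gene of the family and of 10 lists around it, in red where the edgeR adjusted p was under 0.05, over the middle 50% of all tested genes (grey). LOX lay to the right of every gene shown except COL5A1.

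Of 13 regulators described for lysyl oxidase genes, all were tested, 9 rose and 2 fell (median log2 change 0.74). EPAS1, which encodes HIF-2 alpha, rose 12.9-fold (edgeR adjusted p = 5.87e-05). It went from 18.3 ± 1.30 CPM to 179, 175 and 355 in the hypoxic libraries, replicate 3 being the highest. TGFB1, a growth factor known to induce LOX, rose 5.07-fold, from 124, 108 and 129 CPM in normoxia to 628, 583 and 620 in hypoxia. SNAI1, a repressor that LOXL2 and LOXL3 have been described to stabilise, rose 3.54-fold from 0.847 ± 0.352 to 2.99 ± 0.174 CPM (edgeR adjusted p = 0.00126). HIF1A, named after its value was seen, rose 1.47-fold (edgeR adjusted p = 0.00544), a call lost with library totals alone (adjusted p = 0.146). IRF1, described as an activator of LOX transcription, fell 2.09-fold and CCN2, a matrix growth factor, 1.95-fold. Of 10 focal adhesion and stiffness response genes 8 rose and 2 fell (median log2 change 0.30). That count was 4 with library totals alone, without the filter or without normoxia replicate 1 or 2, and 5 without normoxia replicate 3 or hypoxia replicate 2. ITGA5, the fibronectin receptor subunit, rose 3.44-fold, from 95.5 ± 3.92 to 328 ± 9.53 CPM, PXN (paxillin) 2.01-fold and SRC 1.73-fold. CCN1, a target of YAP, fell 2.62-fold from 962 ± 30.0 to 367 ± 104 CPM, and VCL (vinculin) fell 1.86-fold.

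The list of meningioma and arachnoid markers holds 10 genes, some of them, such as NF2, not particular to such cells. Their sum was 3125 to 4004 CPM in normoxia and 6255 to 7809 in hypoxia, mostly VIM. Of the 10, 8 were tested, 4 rose and 4 fell (SSTR2 kept by the filter through normoxia alone). CRABP2 rose 58.1-fold, MUC1 4.27-fold and DSP 3.01-fold, while SLC4A4 fell 3.19-fold and NF2 3.00-fold. PTGDS and CLDN11, arachnoid markers, had 2 counts or fewer in any library. Fibroblast and mural markers, cells that are rich in LOX in tissue, summed to 72.7 to 73.2 CPM in normoxia and 47.5 to 71.9 in hypoxia. Of those 8 genes 5 were tested, 0 rose and 3 fell (LUM, PDGFRB and RGS5), and DCN, PDGFRA and FAP had 3 counts or fewer in any library, at 0 in some. Endothelial markers summed to 16.0 to 19.2 and 4.94 to 7.99 CPM, leukocyte markers to 2.27 to 2.92 and 1.73 to 2.84, and glial and neural markers to 19.4 to 23.8 and 19.4 to 23.2. These sums cover genes that went both ways. Of 3 endothelial markers tested 0 rose and 2 fell, TEK and KDR, the latter not called without normoxia replicate 2 or hypoxia replicate 2. PECAM1 (0.619 to 1.16 CPM in normoxia) reached 3.42 CPM and the fibroblast marker THY1 (36.3 to 38.0 CPM) 49.7 CPM in hypoxia replicate 3, with neither called. Of 5 glial and neural markers tested 1 rose and 2 fell. SNAP25, a synaptic gene, rose 5.26-fold, from 1.51 ± 0.276 to 7.92 ± 1.30 CPM (SD, n = 3; edgeR adjusted p = 1.41e-05). MBP fell, kept by the filter through normoxia alone, and OLIG2 fell, a call lost without normoxia replicate 1 or 3. Every library came from the same line, so these values are levels of marker genes in that line. How these markers relate to the change of LOX was not tested.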

How the data were processed

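Total RNA from 3 normoxic and 3 hypoxic IOMM-Lee cultures was made into libraries with a NEBNext Ultra II kit, per the labels' protocols. The build GRCh38.p13 and the tools featureCounts 2.0.1, HISAT2 2.1.0, DESeq2 1.37.5 and fastp 0.20.1 are listed in the submitters' processing notes. The deposited values are whole-number read counts per Ensembl gene, not normalized. Which annotation release and strand setting the counting used is not given in the sources used here. A further deposited table was not used, because its cells run together. The labels call the samples biological replicates without saying what separated the cultures, so p-values measure the spread between these samples.

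The count line that names no gene (0.00243% of counts) was left out, and 61756 identifiers matched a symbol. Genes were kept by edgeR's filterByExpr (about 10 counts or more at the median library size in 3 libraries, and 15 in total), scaled by TMM and tested with edgeR 4.0.16 (R 4.3.3) by the robust quasi-likelihood test on the oxygen group. Benjamini-Hochberg adjustment ran over all 16411 tested genes, with a threshold of 0.05. The biological coefficient of variation was 15.3%. Pairs of replicates differed by more than counting noise, with a chi-square per gene of 5.75 to 39.3. Exon lengths, positions and overlaps came from GENCODE 29 on GRCh38, which need not be the authors' release. Shares and ratios were tested by exact permutation over samples. The fit was run on simulated data with known changes in a small part of the genes, up or down at random. That run did not check the choice of scaling, on which the counts of calls depend.

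The 5 members, the 10 gene lists and the marker lists were chosen with earlier results of these data known. Genes named are the 5 members, genes whose body overlaps one, the 3 nearest profiles per member, and from each list up to 3 called genes with the largest change in the main direction and up to 2 in the other, with a mean of at least 1 CPM. A few called genes outside this rule are named too. Genes that did not pass are named with values only. Alternatives were DESeq2 1.42.0, limma-voom (limma 3.58.1), other scalings and filters, protein-coding genes alone, a replicate block, longest transcripts for length, and each library left out. Comparison of the protein sequences was not run.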

Additional observations from a re-analysis of the deposited data

How the results depend on the processing

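Of the 74 alternative values for the changes of the 5 genes, 72 kept their direction and their side of the threshold, and 2 did not. The stricter filter left LOXL4 out and gave no value for it. With library totals alone LOXL1 (-0.48) and LOXL3 (-0.73) passed the edgeR test as lower in hypoxia, beside a shift of -0.31 in the median of all genes. LOX ran from 4.01 with library totals alone to 4.35 with protein-coding genes only. Without 1 library at a time the log2 change was 4.21 to 4.35 for LOX, 0.89 to 0.98 for LOXL2, -0.29 to -0.10 for LOXL1, -0.55 to -0.34 for LOXL3 and 0.10 to 0.74 for LOXL4, with no call changed. Levels per kilobase moved by more than their SD with the longest transcript, by construction of the shorter length, to 24.8 for LOX in normoxia, 42.4 and 37.8 for LOXL1, 39.2 and 75.9 for LOXL2, and 1.14 and 0.846 for LOXL3 (normoxia and hypoxia). The LOXL2 share then differed by -23.9 points. With library totals alone they were 25.3 and 409 for LOX, 26.0 for LOXL1 in hypoxia, 27.1 and 42.4 for LOXL2, and 1.02 for LOXL3 in normoxia. ENTPD4 turned to -0.040 with upper-quartile scaling, -0.28 with library totals alone and -0.092 without the filter, and ran from -0.060 to 0.073 without 1 library at a time; the cause was not tested. Over all genes library totals alone gave 3421 higher and 6905 lower against 5117 and 5091. All genes of the 10 lists together had 45 rises and 12 falls, and 31 and 17 with library totals alone. These are counts, not shares, and the number of genes tested is given with each list above. In the main fit 31.2% of all tested genes were higher and 31.0% lower. The lists were chosen with earlier results known, so their counts are descriptions.

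The replicate numbers were not shown to pair the samples: same-numbered libraries had correlations of deviations of -0.106, 0.0864 and -0.0378. With the replicate block 4862 genes were higher and 4906 lower, LOX stood at 4.32 and LOXL2 at 0.95, and no call of the 5 genes changed. Depth limits LOXL4 most, at 8 to 13 counts a library, and LOXL3 at 25 to 93.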
